A study of Mus musculus with 12 samples.

Results

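The cytosolic ribosomal protein genes described here are 42 of 46 listed genes, the ones that had a mean of 10 CPM or more over 12 RNA-seq libraries of mouse embryonic fibroblasts. CPM is a gene's read count scaled to the size of its library, with library sizes adjusted by TMM. Of the 42 genes, 25 encode proteins of the large ribosomal subunit and 17 encode proteins of the small subunit. The tables held 37991 genes, of which 15098 had enough counts to be tested. The 4 listed genes that failed the threshold were Rps23 at 2.02 CPM, Rpl5 at 5.39 CPM, Rpl28 at 6.99 CPM and Rpl27 at 8.596 CPM. The members just inside it were Rpl19 at 11.7 CPM and Rpl11 at 14.9 CPM.

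The libraries form 4 groups of 3: wild type (WT), cells without Ing1 (Ing1 KO), cells labelled as lacking Gadd45a, and a double knockout (DKO) labelled as lacking both. All cells were primary fibroblasts of C57BL/6N stock from male embryos at E15.5, harvested at passage 4 and 80% confluency without further treatment. Both knockouts were carried by the whole animal and were brought together by crossing the mutant mouse lines. Whether replicates stem from different embryos or cultures is not given, so p-values measure the spread between these libraries, which may be technical. Ing1 stood at 52.3 ± 2.0 CPM in WT and at 1.22 ± 0.20 CPM in Ing1 KO (SD, n = 3). It stood at 52.2 ± 2.4 CPM in the Gadd45a-labelled libraries and at 1.117 ± 0.190 CPM in the DKO-labelled libraries. Gadd45a went against its labels: it stood at 21.1 ± 0.2 CPM in WT and 18.4 ± 1.9 CPM in Ing1 KO, and at 99.99 ± 21.8 CPM in the Gadd45a-labelled and 126.5 ± 6.3 CPM in the DKO-labelled libraries. The counts cannot tell a disrupted transcript from an intact one, and both groups are therefore called the Gadd45a-labelled and the DKO-labelled libraries throughout.

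A cytosolic ribosome is built in the nucleolus from ribosomal RNA and one copy of nearly every ribosomal protein. The large subunit joins amino acids and the small subunit decodes the messenger RNA. The proteins are needed in equal amounts, their genes are transcribed in every cell, and their messenger RNAs begin with a run of pyrimidines through which mTOR signalling sets how fast they are translated. These messenger RNAs have also been copied back into the mammalian genome many times, which left processed pseudogenes that differ little from the parent gene.

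Such copies bear on which reads can be counted to a ribosomal protein gene, because a read of 51 bases that lies in a copy too has no unique place. Of each gene's coding sequence, the share of 51-base windows that also occur without a mismatch in an annotated pseudogene transcript had a median of 88.2% over the 46 listed genes. It reached 100% in 13 of them and was lowest in Rps3 with 7.7%, Rpl8 with 8.6% and Rplp2 with 9.2%. The windows below are shown because they mark this difference. The first 4 come from genes whose levels are compared between groups below and are held unchanged by several pseudogenes: 3 for Rpl10a, 4 each for Rps18 and Rpl18, and 5 for Rps4x. The Rpl7a window is held by 41 pseudogenes and the Rpl8 window by 1. They are bases 154 to 204, 60 to 110, 395 to 445, 184 to 234, 493 to 543 and 675 to 725 of the main transcript, all exonic and coding, in a GENCODE annotation of GRCm38.
Rpl10a: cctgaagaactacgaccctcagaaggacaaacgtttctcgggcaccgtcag
Rps18: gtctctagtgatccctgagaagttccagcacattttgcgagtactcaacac
Rpl18: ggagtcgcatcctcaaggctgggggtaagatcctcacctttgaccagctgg
Rps4x: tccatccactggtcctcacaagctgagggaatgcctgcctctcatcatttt
Rpl7a: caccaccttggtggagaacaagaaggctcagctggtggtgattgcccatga
Rpl8: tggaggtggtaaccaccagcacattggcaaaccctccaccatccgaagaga

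Other reads differ from the copy by a single base, which an aligner can use to place them. The 2 pairs below are coding windows of Rps18 (bases 369 to 419 of its transcript) and Rps3 (bases 520 to 570), each beside the matching window of a pseudogene, and the base in capitals is the 1 at which the pair differs.
Rps18: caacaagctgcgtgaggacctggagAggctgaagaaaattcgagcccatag
Rps18-ps3: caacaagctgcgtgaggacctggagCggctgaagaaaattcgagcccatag
Rps3: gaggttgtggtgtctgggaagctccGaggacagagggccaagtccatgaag
Gm8130: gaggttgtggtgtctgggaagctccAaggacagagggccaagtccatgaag

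Over whole transcripts, untranslated ends included, the median share of windows found in the transcript of any other gene was 55.4% for the 46 listed genes, from 2.8% in Rps3 to 94.9% in Rpl35. The other cytosolic ribosomal protein genes, a list of 33 of which 32 were found, had a median of 56.6%. The median was 2.4% for 37 mitochondrial ribosomal protein genes, 0.6% for 36 ribosome biogenesis genes and 8.1% for 30 translation factors. Other genes here include genes that overlap in the annotation. Counting pseudogenes only, Rpl35, which overlaps Arpc5l and Wdr38, had 28.7%, and Rpl10a had the highest share of the 46 with 88.1%. Reads in the 86 pseudogene rows named after a listed gene came to 651 to 1090 per library, or 0.16% to 0.24% of the reads counted to the 46 genes. For a few genes the named copies held more: 20.1% of the parent's count for Rpl5, 15.2% for Rpl19, 11.2% for Rpsa, 9.59% for Rpl28 and 7.60% for Rpl10a. These rows leave out pseudogenes not named after a parent. Rpl7a had 7 such rows, while 120 pseudogenes shared a window with its transcript, and Rps2 had 4 against 71.

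The level counted per kilobase of transcript differed 72.8-fold between the highest and the lowest of the 42 genes. Highest were Rpl32 at 985.3 CPM per kb, Rps9 at 908.4 CPM per kb and Rpl4 at 874.5 CPM per kb. Lowest were Rpsa, which encodes a small subunit protein also known as a laminin receptor, at 13.5 CPM per kb, Rpl19 at 15.6 CPM per kb and Rpl11 at 17.9 CPM per kb. Those 3 genes had 98.6%, 99.8% and 100% of their coding windows in pseudogenes, against 34.1%, 42.7% and 19.7% for Rpl32, Rps9 and Rpl4. No member had a share between 60% and 75%, and this gap was chosen as a boundary after the values were seen. The 12 members below it had a median of 669.8 CPM per kb and the 30 above it had a median of 80.1 CPM per kb. Of the 30, the 9 with every coding window shared had a median of 43.1 CPM per kb. Over the 46 listed genes Spearman's rho between the coding share and the level per kb was -0.78, a description across genes that share the same libraries. With the share over whole transcripts, any other gene counted, rho was -0.56. Exceptions by the coding share were Rpl23 at 722.7 CPM per kb with 86.2% shared and Rps4x at 534.6 CPM per kb with 89.3% shared. Over their whole transcripts Rpl23 shared 34.5% and Rps4x 71.5% of windows with other genes. Below, fold changes compare a gene only with itself across groups. The sums given below add up genes whose coding windows are shared with pseudogenes to different degrees.

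**Figure D1:**
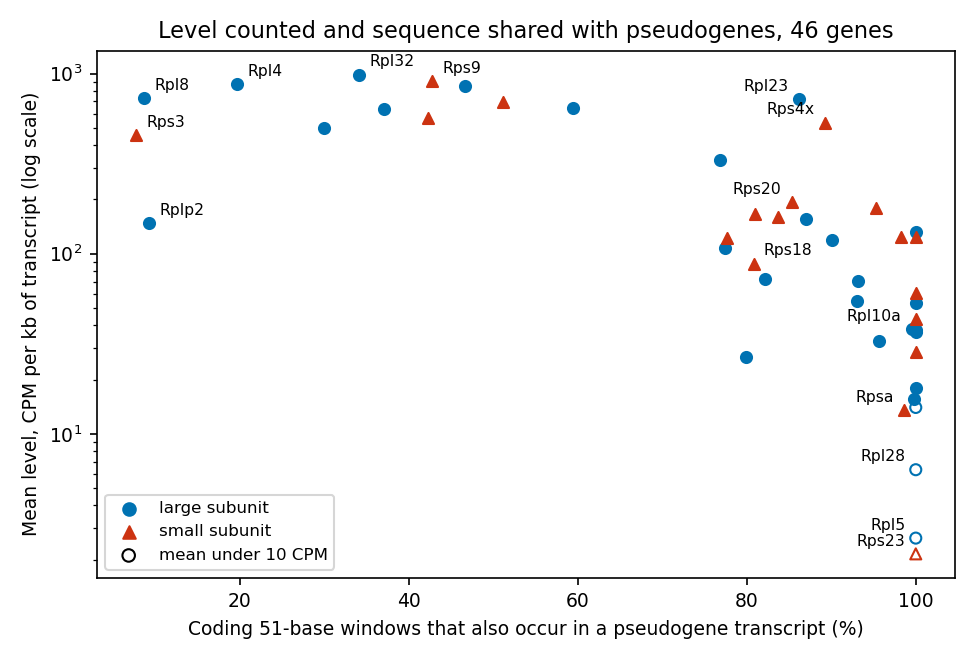
Mean level over 12 libraries in CPM per kb of transcript (log axis) against the percentage of coding 51-base windows that also occur in an annotated pseudogene transcript, 1 point for each of 46 genes, with circles for large and triangles for small subunit genes and open symbols for means under 10 CPM. Genes with under 60% of windows shared lie between 147.8 and 985.3 CPM per kb, and the 4 open symbols all lie at 100%.

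The libraries held 31493168 to 42852059 reads counted to genes, and a listed gene with 10 CPM or more had between 326 and 60089 reads in a library. The 46 genes held 1.02% to 1.21% of the gene counts. The summary line for alignments that are not unique held 17.9% to 18.18% of all counts listed, summary lines included, in WT and 18.35% to 19.12% in Ing1 KO. It held 18.0% to 18.43% in the Gadd45a-labelled libraries and 18.09% to 18.24% in the DKO-labelled libraries. Whether that line counts reads or alignments was not given in the sources used here. The 10 fibroblast markers summed to 48410 to 64070 CPM per library, with none at 0. In Ing1 KO against WT 4 of these 10 were called lower, Dcn (log2 fold change -1.56), Lum (-1.42), Pdgfra (-0.80) and Col3a1 (-0.48), and 2 higher, Vim (0.36) and Thy1 (0.32). Over all genes 11.4% were lower and 12.1% higher. Dcn averaged 392.7 CPM in WT and 133 CPM in Ing1 KO. The part of these 6 genes in the differences of Ing1 KO given below was not tested. In the DKO-labelled libraries 2 of the 10 were called lower and 0 higher than in WT (all genes 10.3% and 15.6%). Against the Gadd45a-labelled libraries 2 were lower and 0 higher (all genes 10.6% and 15.8%), and against Ing1 KO 3 and 1 (all genes 9.88% and 14.9%). The part of these markers in the differences of the DKO-labelled libraries given below was not tested. Of 16 macrophage markers none was at 0, and their sum was 269.5 to 459.2 CPM in WT, 360.1 to 630.2 CPM in Ing1 KO and 142.1 to 556.8 CPM in the Gadd45a-labelled libraries, against 2241 to 2794 CPM in the DKO-labelled libraries, where all 16 were called higher than in each other group. Over all genes 15.6% were called higher in the DKO-labelled libraries than in WT, 15.8% than in the Gadd45a-labelled libraries and 14.9% than in Ing1 KO. Markers of endothelium, epithelium and skeletal muscle, 6 each, summed to at most 6.93, 12.9 and 73.7 CPM in any library, and 6 of neural and Schwann cells to at most 175.6 CPM. In bulk RNA, fewer cells of a type and less RNA per cell cannot be told apart, and CPM measures a share of the RNA, not an amount per cell.

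Together the 42 ribosomal protein genes had their lowest group mean in the DKO-labelled libraries, though not below every single WT library on each scale. Their summed level was 11620, 11120 and 10520 CPM in WT replicates 1 to 3 and 11080, 12060 and 11470 CPM in Ing1 KO. It was 11660, 11340 and 11690 CPM in the Gadd45a-labelled libraries and 10440, 10510 and 10500 CPM in the DKO-labelled libraries. The 3 DKO-labelled libraries had the lowest sums, next to WT replicate 3, and they spread least. With each gene weighted equally, the mean deviation from the gene's own mean on the log2 scale was -0.08, -0.06 and -0.11 in the DKO-labelled libraries and -0.12 in WT replicate 3, beside 0.06 and -0.02 in the other WT libraries. The group means were 11090 ± 551 CPM in WT, 11540 ± 493 CPM in Ing1 KO, 11560 ± 194 CPM in the Gadd45a-labelled libraries and 10480 ± 37.9 CPM in the DKO-labelled libraries (SD, n = 3). The sums were not tested, since with 3 libraries a side the smallest two-sided exact permutation p is 0.1.

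Both subunits had their lowest mean in the DKO-labelled libraries. The large subunit genes summed to 6614 ± 312 CPM in WT, 6966 ± 282 in Ing1 KO, 6957 ± 125 in the Gadd45a-labelled libraries and 6334 ± 45.9 in the DKO-labelled libraries (SD, n = 3). The small subunit genes summed to 4474 ± 238, 4570 ± 213, 4605 ± 70.8 and 4148 ± 10.5 CPM in the same order. Genes with many counted reads weigh most in these sums and in their ratio, such as Rpl4 with a mean of 1345 CPM and Rps3 with 870.2 CPM. The ratio of both sums was 1.464 to 1.494 in WT, 1.514 to 1.540 in Ing1 KO, 1.503 to 1.525 in the Gadd45a-labelled libraries and 1.511 to 1.537 in the DKO-labelled libraries. WT had the lowest ratios, without overlap with any other group. The summed macrophage markers, shown beside both sums in the plot of summed levels, were high in the DKO-labelled libraries, and their part in this and in every difference of these libraries given below was not tested.

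**Figure D2:**
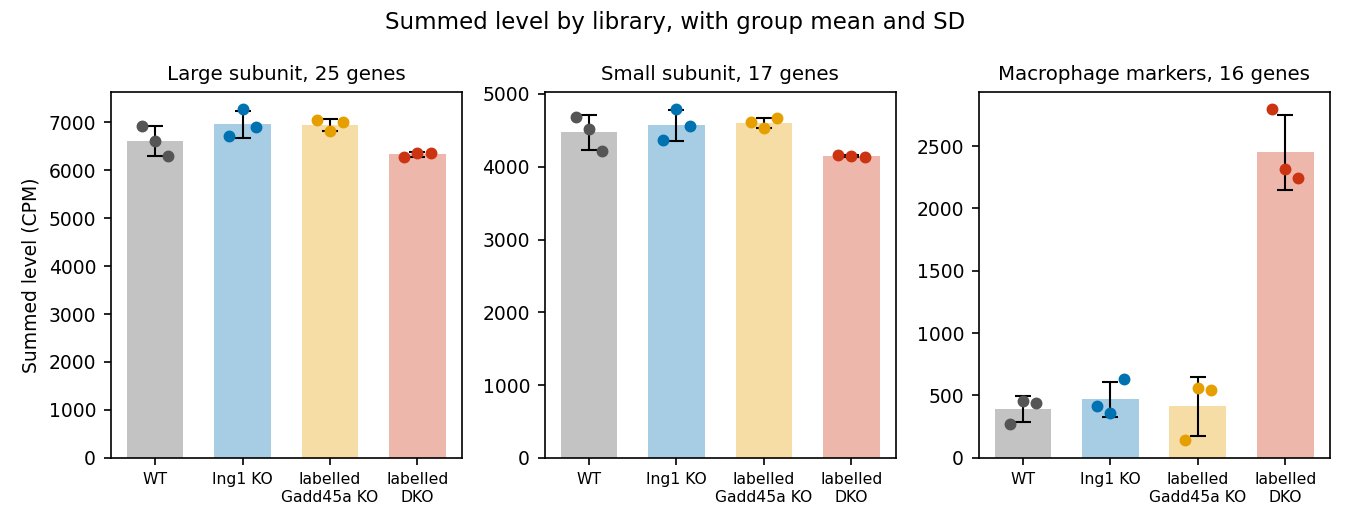
Summed level in CPM of 25 large subunit genes, 17 small subunit genes and 16 macrophage markers; each point is a library, each bar a group mean of 3 and each error bar 1 SD. The DKO-labelled libraries have the lowest means for both subunits, 6334 and 4148 CPM, and the highest macrophage marker sum, 2241 to 2794 CPM.

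Gene by gene, the group mean was lowest in the DKO-labelled libraries for 30 of 42 members, in WT for 9 and in Ing1 KO for 3, and in the Gadd45a-labelled libraries for 0. It was highest in Ing1 KO for 24, in the Gadd45a-labelled libraries for 13 and in WT for 5. The spread within a group was largest in WT, where the median coefficient of variation of the members was 6.4%, against 5.0% in Ing1 KO, 2.5% in the Gadd45a-labelled libraries and 4.3% in the DKO-labelled libraries. Rps12, a small subunit gene, varied most in WT with 29.0%: it stood at 73.0, 48.3 and 43.3 CPM in the 3 libraries. Rpl11, whose free protein binds the p53 inhibitor Mdm2, varied most among the DKO-labelled libraries with 23.5%, at 15.3, 16.4 and 10.3 CPM. In the heat map of members by library, WT replicate 3 was the lowest of its group for 37 of 42 genes and Ing1 KO replicate 2 the highest of its group for 37.

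**Figure D3:**
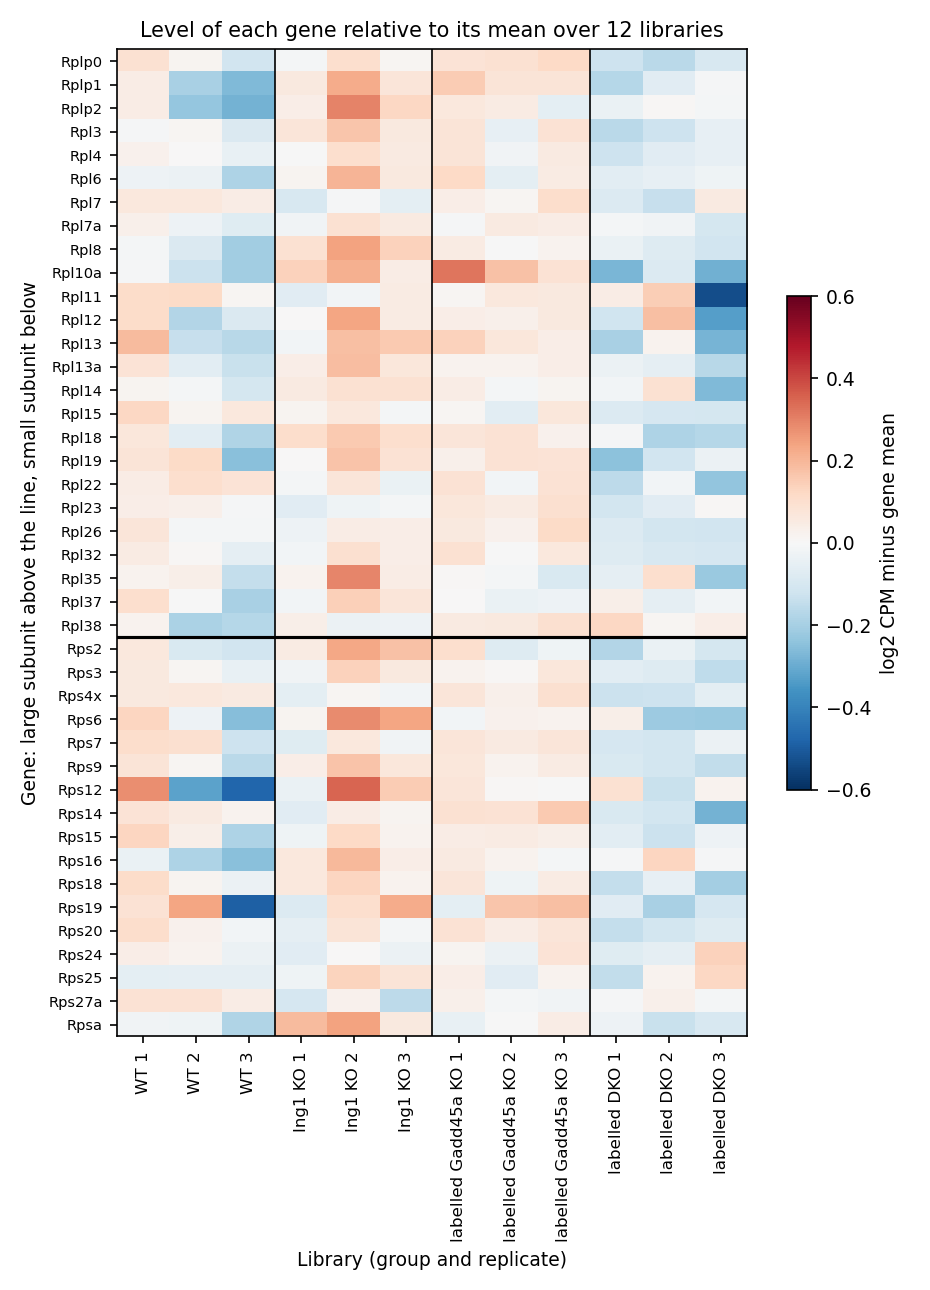
Level of each of 42 genes in each of 12 libraries as log2 CPM minus the gene's mean over the libraries, with red for higher and blue for lower; rows are genes (large subunit above the line, small subunit below) and columns are libraries by group. The 3 columns labelled DKO are mostly blue, WT replicate 3 is bluer than the other WT libraries, and Ing1 KO replicate 2 is the reddest column of its group.

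Loss of Ing1 alone was compared first, Ing1 KO against WT. Ribosomal protein genes with a difference past the threshold were all higher: 8 of 42 rose and 0 fell at a Benjamini-Hochberg adjusted p under 0.05 in edgeR's quasi-likelihood test. Over all genes tested 12.1% were higher and 11.4% lower. Of the 9219 genes tested at 10 CPM or more, the limit set for members, 1522 were higher and 1137 lower. The median log2 fold change was 0.10 over the members, 0.10 for large and 0.05 for small subunit genes, and -0.003 over all genes. The 8 were the large subunit genes Rpl8, Rplp1, Rplp2, Rpl10a and Rpl6 and the small subunit genes Rps16, Rpsa and Rps2. Rplp1 and Rplp2 encode the acidic stalk proteins that recruit translation factors. In 10 members the groups did not overlap and Ing1 KO was higher, and in 4 it was lower, beside 18.5% and 18.8% of all genes. Among the 9219 genes at 10 CPM or more, 2162 were higher and 1771 lower without overlap. Single libraries moved the count: leaving out WT replicate 1 gave 13, and it was 3 without WT replicate 2, 2 without WT replicate 3 and 1, with 1 more gene lower, without Ing1 KO replicate 2. The share of the summary line for alignments that are not unique was also higher in Ing1 KO than in WT, without overlap, and its part in these differences was not tested.

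Rpl8 (ENSMUSG00000003970, chromosome 15), a core protein near the peptidyl transferase centre, stood at 614.4, 582.8 and 535.4 CPM in WT and at 659.5, 732.5 and 681.4 CPM in Ing1 KO. All 3 Ing1 KO libraries were above all WT libraries. Its log2 fold change was 0.26 (SE 0.05, edgeR adjusted p 0.00461), and it was called in all 13 alternative settings run for this comparison, each left-out library among them. Only 8.6% of its coding windows lie in a pseudogene. Rps16 (ENSMUSG00000037563, chromosome 7) stood at 65.1, 58.8 and 56.2 CPM in WT and at 69.9, 76.6 and 68.6 CPM in Ing1 KO, again without overlap (0.26, SE 0.06, adjusted p 0.00937). Rpsa (ENSMUSG00000032518, chromosome 9) stood at 21.3, 21.2 and 19.0 CPM in WT and 24.6, 25.5 and 22.5 CPM in Ing1 KO (0.24, SE 0.06, adjusted p 0.0169). The other 5 rose by 0.18 (Rpl6) to 0.31 (Rplp2) on the log2 scale, with WT and Ing1 KO libraries overlapping for Rplp2 and Rps2. Among the 4 listed genes under 10 CPM, Rpl27 rose by 0.35 (SE 0.11, adjusted p 0.0318) and the other 3 did not pass the test.

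The Gadd45a-labelled libraries were compared with WT next. None of the 42 members passed the threshold in edgeR or in DESeq2, while 5 of 42 had an unadjusted p under 0.05 in edgeR, and over all genes tested 0.00662% were called, a single gene, which was higher. The log2 fold change was positive for 36 of 42 members and negative for 6, beside 48.9% negative over all genes, with a median of 0.05 for all members and for the small subunit genes and 0.06 for the large subunit genes. The smallest p-values belonged to Rpl10a with 0.31 (SE 0.08, edgeR adjusted p 0.423), Rpl38 with 0.18 (SE 0.06, adjusted p 0.475) and Rplp1 with 0.24 (SE 0.08, adjusted p 0.479). Each of these 3 had all of its values in the Gadd45a-labelled libraries above all WT values, as did 4 other members. Lower without overlap was 1 member. Over all genes 7.71% were higher and 6.97% lower without overlap, and of 9219 at 10 CPM or more 819 and 729 were.

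The DKO-labelled libraries were compared with WT to see the state in which both losses are labelled. Here 6 of 42 members were lower and 2 were higher by the same test, beside 10.3% of all genes lower and 15.6% higher. At 10 CPM or more, 956 of 9219 genes were lower and 1622 higher. The log2 fold change was negative for 33 of 42 members, with a median of -0.08 (large subunit -0.07, small subunit -0.09), and negative for 48.3% of all genes. The 6 lower genes were Rps4x, Rps14, Rps18 and Rps20 of the small subunit and Rpl22 and Rpl15 of the large subunit, and the 2 higher ones were Rps16 and Rpl38. With total counts in place of TMM scaling the split was 7 lower and 0 higher. The lower count was 3 without WT replicate 1 or without the first DKO-labelled library and 11 without WT replicate 3. The higher count was 4 without WT replicate 1, 1 without the third DKO-labelled library and 0 without any one of the other 4 libraries.

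Rps4x (ENSMUSG00000031320, chromosome X) stood at 542.8, 543.4 and 540.2 CPM in WT and at 475.6, 478.4 and 500.2 CPM in the DKO-labelled libraries. The WT values were almost equal and all 3 DKO-labelled values lay below them. Its log2 fold change was -0.16 (SE 0.04, edgeR adjusted p 0.00771), a fall of 10.6% in linear terms. Rps14 (ENSMUSG00000024608, chromosome 18), whose loss in human bone marrow is linked to anaemia, stood at 440.1, 430.6 and 421.5 CPM in WT and at 389.1, 385.1 and 341.5 CPM in the DKO-labelled libraries (-0.21, SE 0.05, adjusted p 0.00941). Both genes were called under all 13 alternative settings. Rps14 overlaps Ndst1 in the annotation, and reads from unstranded libraries cannot be told apart where both lie. The same holds for 7 other members called in at least 1 of the comparisons: Rpl3 with Syngr1, Rpl13a with Gm45713, Rpl15 with Nkiras1, Rpl18 with Sphk2, Rpl32 with Cand2, Rps2 with Snhg9 and Rps18 with Vps52.

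Rpl22 (ENSMUSG00000028936, chromosome 4), an RNA-binding protein of the large subunit, stood at 243.9, 253.2 and 250.5 CPM in WT and at 212.2, 233.7 and 200.9 CPM in the DKO-labelled libraries. Those groups did not overlap, and the log2 fold change was -0.21 (SE 0.06, edgeR adjusted p 0.0135). Rpl15 (-0.16, SE 0.05, adjusted p 0.0194), Rps20 (-0.15, SE 0.05, adjusted p 0.0283) and Rps18 (-0.16, SE 0.05, adjusted p 0.0413) were lower by similar amounts, each without overlap. Rps16 stood at 66.4, 73.1 and 66.6 CPM in the DKO-labelled libraries, above its 3 WT values (0.19, SE 0.06, adjusted p 0.0326). Rpl38, required in mice for translation of Hox messenger RNAs, stood at 48.5, 41.9 and 42.5 CPM in WT and 52.1, 48.2 and 49.2 CPM in the DKO-labelled libraries, which overlapped (0.17, SE 0.06, adjusted p 0.0396). The call of Rpl38 held in 4 of 13 alternative settings. Counting members by separation of the groups, 11 were lower and 1 was higher without overlap, beside 18.5% and 22.8% of all genes. At 10 CPM or more, 1606 of 9219 genes were lower and 2368 higher without overlap.

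Against the Gadd45a-labelled libraries, the DKO-labelled libraries had 11 of 42 members lower and 0 higher, beside 10.6% and 15.8% of all genes. At 10 CPM or more, 1017 of 9219 genes were lower and 1625 higher. The 11 were 7 large subunit genes (Rpl10a, Rplp0, Rpl26, Rpl22, Rpl32, Rpl23 and Rpl18) and 4 small subunit genes (Rps14, Rps4x, Rps20 and Rps18). The log2 fold change was negative for 38 of 42, with a median of -0.12 (large -0.12, small -0.13), against -0.003 and 50.6% negative over all genes. In 23 members the groups did not overlap and the DKO-labelled libraries were lower, beside 21.1% of all genes and 1951 of 9219 at 10 CPM or more. The count was 6 without the first or without the third Gadd45a-labelled library, and 6 without the first DKO-labelled library.

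Rpl10a (ENSMUSG00000037805, chromosome 17), a large subunit protein at the stalk that gates the exit of transfer RNA, differed most. It stood at 34.4, 31.1 and 29.3 CPM in the Gadd45a-labelled libraries and at 22.8, 26 and 22.6 CPM in the DKO-labelled libraries. WT, at 27.4, 25.1 and 23.9 CPM, lay below the Gadd45a-labelled libraries and overlapped the DKO-labelled libraries. The log2 fold change was -0.41 (SE 0.08, edgeR adjusted p 0.00214), or 24.8% lower. Almost all of its coding sequence, 99.5% of windows, lies in pseudogenes too, as does the Rpl10a window printed above.

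Rplp0 (ENSMUSG00000067274, chromosome 5), the base of the acidic stalk and a common reference gene in quantitative PCR, stood at 918.9, 927.8 and 943.5 CPM in the Gadd45a-labelled libraries and 796.5, 776.4 and 813.1 CPM in the DKO-labelled libraries. Both sets of values were narrow and far apart (-0.23, SE 0.05, edgeR adjusted p 0.00681). WT, at 927.6, 878.8 and 803.6 CPM, overlapped both. Rps14 at 442.0, 441.5 and 462.3 CPM in the Gadd45a-labelled libraries fell by 0.27 on the log2 scale (SE 0.05, adjusted p 0.00241), and Rps4x fell by 0.17 (SE 0.04, adjusted p 0.00619). Rpl26, which also binds p53 messenger RNA, stood at 84.8, 83.1 and 88.4 CPM against 77.1, 75.6 and 75.4 CPM (-0.17, SE 0.04, adjusted p 0.00871). These 4 genes and Rpl10a were called in all 13 alternative settings of this comparison. The remaining 6 genes fell by 0.13 (Rpl23) to 0.19 (Rpl22), and Rpl22 alone among the 11 had overlapping groups.

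Against Ing1 KO, the DKO-labelled libraries had 15 members lower and 0 higher, beside 9.88% and 14.9% of all genes. At 10 CPM or more, 1044 of 9219 genes were lower and 1439 higher. The 15 were 8 large subunit genes (Rpl10a, Rpl8, Rpl3, Rpl18, Rpl13a, Rplp0, Rpl32 and Rpl26) and 7 small subunit genes (Rps2, Rpsa, Rps18, Rps9, Rps3, Rps6 and Rps14). Of the members 38 had a negative log2 fold change, with a median of -0.15 (large -0.14, small -0.16), against 0.009 and 48.2% negative over all genes. In 22 members all DKO-labelled libraries lay below all Ing1 KO libraries, beside 16.5% of all genes and 1743 of 9219 at 10 CPM or more. The count was 2 without Ing1 KO replicate 2, 9 without Ing1 KO replicate 3, 7 without the first DKO-labelled library and 6 without the third.

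Rpl10a stood at 30.3, 32.0 and 28.4 CPM in Ing1 KO, all above its 3 values in the DKO-labelled libraries (-0.35, SE 0.08, edgeR adjusted p 0.00636). Rpl8 stood at 602.4, 587.8 and 572.2 CPM in the DKO-labelled libraries, below the Ing1 KO values and within the range of WT (-0.23, SE 0.05, adjusted p 0.0073). These 2 genes were called under all 13 alternative settings, the left-out library that lowered the count to 2 included. Rps2, which lines the entry of the messenger RNA channel, stood at 164.9, 187.0 and 180.0 CPM in Ing1 KO and 140.9, 154.7 and 147.9 CPM in the DKO-labelled libraries (-0.26, SE 0.06, adjusted p 0.0101). Rpsa fell by 0.25 on the log2 scale (SE 0.06, adjusted p 0.0125), Rpl18 by 0.24 (SE 0.06, adjusted p 0.0125) and Rpl3, part of the peptidyl transferase centre, by 0.21 (SE 0.05, adjusted p 0.0111). Rps18, Rps9 and Rps3 fell by 0.20, 0.21 and 0.16, and all their groups were separate. Rps6, the phosphorylated target of S6 kinase, was the 1 called gene whose groups overlapped, at 38.1, 45.8 and 44.4 CPM against 38.6, 32.4 and 32.2 CPM (-0.31, SE 0.10, adjusted p 0.0387).

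**Figure D4:**
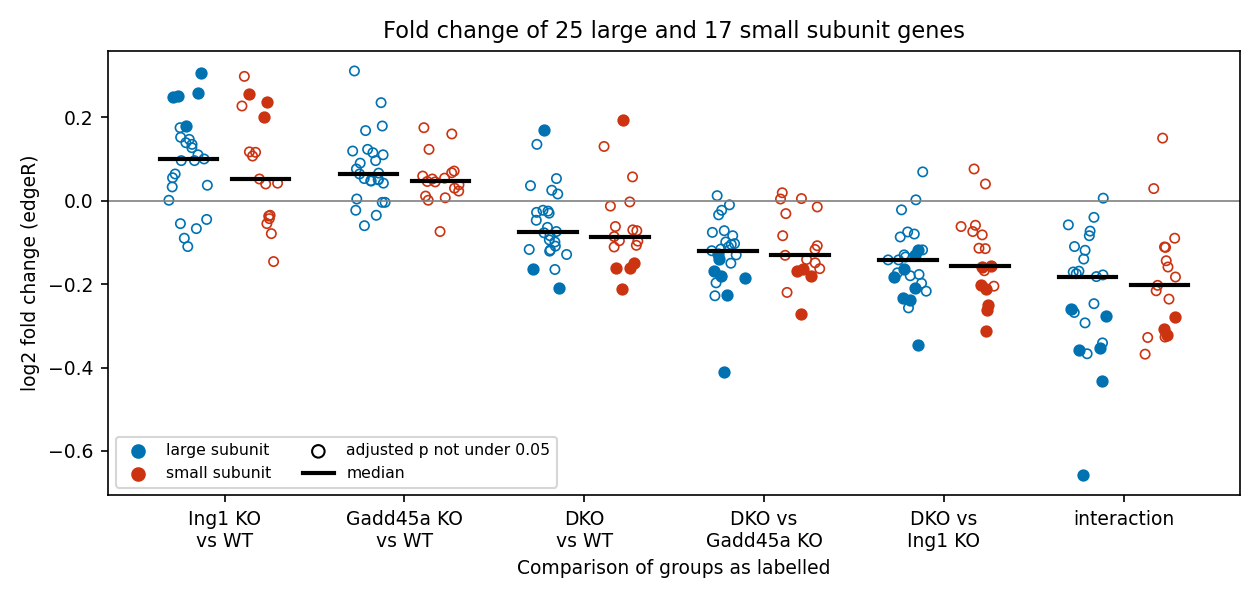
edgeR log2 fold change of each of 25 large subunit and 17 small subunit genes in 5 comparisons of groups as labelled and in the interaction; filled circles passed an adjusted p of 0.05, open circles did not, and the black line is the median. Medians lie above 0 against WT for Ing1 KO and the Gadd45a-labelled libraries, and below 0 in each comparison with the DKO-labelled libraries and in the interaction, for both subunits.

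The interaction asks whether the DKO-labelled libraries differ from WT by the sum of both single differences. It is the log2 fold change of the DKO-labelled libraries against WT less those of Ing1 KO and of the Gadd45a-labelled libraries. It was negative for 39 of 42 members, with a median of -0.19 (large -0.18, small -0.20), and for 48.7% of all genes. It passed the threshold for 9 members, all negative, beside 7.4% of all genes negative and 10.4% positive past it. At 10 CPM or more, 906 of 9219 genes were negative and 1058 positive past it. The 9 were Rpl10a, Rpl8, Rpl18, Rplp1, Rpl3 and Rplp0 of the large subunit and Rpsa, Rps9 and Rps2 of the small subunit. Largest was Rpl10a with -0.66 (SE 0.11, edgeR adjusted p 0.00329), and Rpl8 had -0.36 (SE 0.08, adjusted p 0.00931). The count was 19 without WT replicate 1, 17 without Ing1 KO replicate 1, 5 without WT replicate 2, 4 without WT replicate 3, 5 and 4 without the first or the third Gadd45a-labelled library, and 4 without Ing1 KO replicate 2. Rpl10a, Rpl8 and Rpl18 were called in all 18 alternative settings run. The comparisons are not independent: WT and the DKO-labelled libraries each enter 3 of the 5 comparisons of groups.

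Negative values prevailed in the DKO-labelled libraries among genes with few and with many shared windows. All 12 members with under 60% of coding windows shared had a negative log2 fold change in the DKO-labelled libraries against the Gadd45a-labelled libraries (median -0.14, 4 called) and against Ing1 KO (median -0.16, 7 called), and a negative interaction (median -0.23, 4 called). Over all genes 10.6%, 9.88% and 7.4% were called lower in these 3, and of 9219 genes at 10 CPM or more 1017, 1044 and 906 were. Of the 30 members with 75% or more shared, 26 were negative in each comparison (medians -0.11 and -0.13, 7 and 8 called) and 27 had a negative interaction (median -0.18, 5 called). Among the 9 with every coding window shared, 0 and 1 were called in those 2 comparisons. Against WT, 9 of the 12 and 24 of the 30 were negative, with 2 and 4 called lower and 0 and 2 higher, beside 10.3% and 15.6% of all genes. The 7 called against Ing1 KO with under 60% shared were Rpl8, Rps3, Rps9, Rpl32, Rpl13a, Rplp0 and Rps14.

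**Figure D5:**
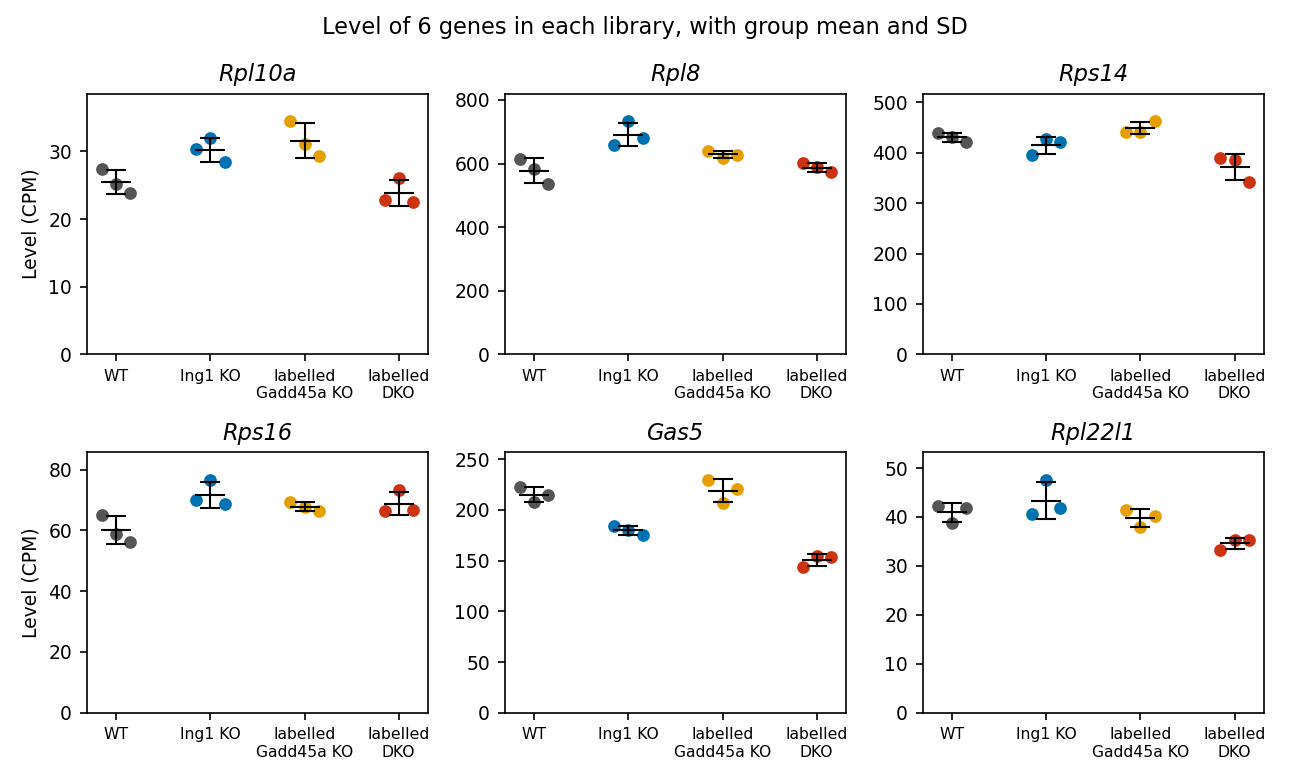
Level in CPM of Rpl10a, Rpl8, Rps14, Rps16, Gas5 and Rpl22l1 in each library, with the group mean and SD of 3 as a bar and whiskers; every axis starts at 0. Rpl10a and Rpl8 are higher in Ing1 KO than in WT and the DKO-labelled libraries, Rps14 is lowest in the DKO-labelled libraries, Rps16 is lowest in WT, and Gas5 and Rpl22l1 are lowest in the DKO-labelled libraries.

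Start sites were examined for the pyrimidine run that ribosomal protein messenger RNAs are known for. RefSeq promoter sequences (GRCm38.p6, another build than that of the counts) were matched by symbol to 38 of 46 listed genes, with several annotated starts for a few. The 30-base windows below run from 20 bases before to 10 bases after the annotated start and are given 5′ to 3′ on the gene's strand; capitals mark CTTTC or CTTCC, which overlap by 1 base in Rpl15. Rpl15, Rpl18 and Rps18 are shown as lower genes in the DKO-labelled libraries whose windows hold a motif, and Rpl38 as 1 higher there against WT. Rps4x is shown as a lower gene whose window holds neither motif. Neither motif was marked either in Rplp0, Rpl10a, Rpl13a, Rpl22, Rpl23, Rpl26, Rps2, Rps3, Rps6, Rps9 and Rpsa. Those genes, not printed, were also called lower in at least 1 comparison with the DKO-labelled libraries. The printed windows lie at chr14:18270977-18271006 (minus strand), chr7:45718051-45718080 (plus), chr17:33955656-33955685 (minus), chr11:114668560-114668589 (plus) and chrX:102189382-102189411 (minus).
Rpl15: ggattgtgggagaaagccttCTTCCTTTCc
Rpl18: acgagtgcgtctcgcaggccgctCTTTCcc
Rps18: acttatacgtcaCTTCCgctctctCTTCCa
Rpl38: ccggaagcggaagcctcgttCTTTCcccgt
Rps4x: aaagtctgaggctgggcggagcaacccagg

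CTTTC was found on either strand in the window of 10 of the 38 genes, or 26.3%, and in 8.8% of 27025 genes with a RefSeq promoter. On the gene's own strand the shares were 26.3% and 5.0%. CTTCC, on either strand, was in 26.3% of the 38 and 15.6% of all. In the 300 bases around the start, CCGGAAG, the core of sites bound by Ets-family factors such as GABP, was in 15 genes (39.5%) and in 9.9% of all, and AAGATGGC, the core of the YY1 site, in 5.3% and 3.2%. Rpl15 and Rpl38 share the sense CTTTC at the start, and Rpl15 was called lower and Rpl38 higher in the DKO-labelled libraries against WT. Those calls held in 11 and 4 of 13 alternative settings. Whether a motif goes with the direction of a difference was not tested.

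Of the other cytosolic ribosomal protein genes, 32 of 33 were tested. In the Gadd45a-labelled libraries against WT 0 of them were called in the main fit, beside 0.00662% of all genes. At most 1 was higher in an alternative setting. In the DKO-labelled libraries 5 were lower and 1 higher than WT (2 lower without WT replicate 1, 3 without WT replicate 2 or without the third DKO-labelled library), beside 10.3% and 15.6% of all genes. Against the Gadd45a-labelled libraries 8 were lower, against Ing1 KO 6, and 7 were called with a negative interaction. Over all genes the shares were 10.6%, 9.88% and 7.4%, and no gene of the list was called higher in these 3. Rpl27a fell in each comparison with the DKO-labelled libraries, from 33.4, 31.9 and 33.9 CPM in WT to 28.1, 27.3 and 27.8 CPM, without overlap (-0.25, SE 0.06, edgeR adjusted p 0.00444). Rps26 was the 1 gene of the list called in Ing1 KO against WT, higher by 0.29 (SE 0.06, adjusted p 0.00519), and the 1 higher in the DKO-labelled libraries (0.22, SE 0.06, adjusted p 0.0192). Over all genes 12.1% were higher in Ing1 KO, where the list's count was 3 without WT replicate 1 and 2 without WT replicate 2. The 1 in the DKO-labelled libraries became 0 without WT replicate 2 or 3 and without the second or the third DKO-labelled library.

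Paralogues of ribosomal proteins, which replace or accompany the standard protein in some tissues, moved both ways, and 6 of 9 were tested. Rpl39l, the testis-enriched paralogue of Rpl39, was lower in the DKO-labelled libraries than in WT (-0.78, SE 0.12, edgeR adjusted p 0.000739), going from 19.8, 20.4 and 18.9 CPM to 11.8, 8.94 and 13.7 CPM. Rpl22l1, the paralogue of Rpl22, fell beside it, from 42.3, 38.7 and 41.9 CPM in WT to 33.3, 35.3 and 35.3 CPM (-0.24, SE 0.06, adjusted p 0.013). Rps4l, a paralogue of Rps4x, was higher in Ing1 KO (0.44, SE 0.08, adjusted p 0.00228) and in the DKO-labelled libraries (0.37, SE 0.08, adjusted p 0.005), and Rpl36al was higher in Ing1 KO (0.25, SE 0.05, adjusted p 0.00546) and in the DKO-labelled libraries (0.18, SE 0.05, adjusted p 0.0251). So 2 of 6 rose in Ing1 KO, and 2 rose and 2 fell in the DKO-labelled libraries against WT, beside 12.1%, 15.6% and 10.3% of all genes. The 2 higher there became 1 without WT replicate 2, WT replicate 3 or the first or the third DKO-labelled library, and the 2 lower became 1 without WT replicate 1 or the first DKO-labelled library. In the DKO-labelled libraries against Ing1 KO the called ones were Rpl22l1, Rpl39l and Rps27l, all lower, beside 9.88% of all genes; 1 was called without Ing1 KO replicate 2 or 3.

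Ribosome biogenesis genes, which make ribosomal RNA and assemble subunits, were called in Ing1 KO in 1 direction. All 36 were tested: 17 rose, 0 fell and 19 did not pass the test in Ing1 KO against WT (median 0.19), beside 12.1% of all genes higher and 11.4% lower, with Nhp2, a box H/ACA ribonucleoprotein, at 25.8, 21.9 and 23.1 CPM in WT and 29.6, 34.9 and 31.01 CPM in Ing1 KO (0.43, SE 0.07, edgeR adjusted p 0.00128). Polr1a, the largest subunit of RNA polymerase I, rose by 0.34 (SE 0.06, adjusted p 0.0016) and Bop1 by 0.40 (SE 0.08, adjusted p 0.00274). Leaving out WT replicate 2 gave 10, and leaving out Ing1 KO replicate 2 gave 9. In the DKO-labelled libraries 23 were lower than in Ing1 KO, beside 9.88% of all genes, among them Polr1c (-0.32), Polr1a (-0.33) and Mybbp1a (-0.27). That count was 9 without Ing1 KO replicate 2, 13 without Ing1 KO replicate 3 and 12 without the second DKO-labelled library. Called with a negative interaction were 16, beside 7.4% of all genes. This became 9 or 10 without WT replicate 2 or 3, Ing1 KO replicate 2, the third Gadd45a-labelled or the first or second DKO-labelled library. Against WT 1 was lower, Npm1 (-0.22, SE 0.06, adjusted p 0.0131), a nucleolar chaperone, and 1 higher, Heatr1 (0.26, SE 0.07, adjusted p 0.0175), beside 10.3% and 15.6% of all genes. The lower count was 0 without the first or the second DKO-labelled library; the higher count was 0 without WT replicate 2 or the first DKO-labelled library and 2 without WT replicate 1. Of the DKO-labelled libraries against the Gadd45a-labelled libraries, 4 were lower, among them Nol6 (-0.20), Npm1 (-0.21) and the RNA polymerase I factor Ubtf (-0.17), beside 10.6% of all genes. That count was 0 without the first and 1 without the third Gadd45a-labelled library, and 2 without the first or the second DKO-labelled library.

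Of 30 translation factors, 6 rose and 1 fell in Ing1 KO against WT, led by Eif6, which keeps the large subunit from joining early, with 0.34 (SE 0.04, edgeR adjusted p 0.000298). Over all genes 12.1% rose and 11.4% fell, and the 6 became 3 without replicate 2 of WT and also without replicate 2 or 3 of Ing1 KO. Eif5a rose by 0.24 (SE 0.05, adjusted p 0.00433) and Eif4a2 fell (-0.27, SE 0.05, adjusted p 0.00391). In the DKO-labelled libraries 11 were lower and 1 higher than in Ing1 KO, with Eef2, the translocation factor, at 2661, 2658 and 2666 CPM against 3047, 3331 and 3086 CPM (-0.25, SE 0.06, adjusted p 0.0097), Eif3c at -0.27 and Eif1 at -0.21, beside 9.88% and 14.9% of all genes. The lower count was 2 without Ing1 KO replicate 2, 7 without Ing1 KO replicate 3 and 4 and 3 without the first or the second DKO-labelled library, and the higher count was 2 without Ing1 KO replicate 1. Against WT, 3 were lower, among them Eif1 (-0.17) and Eif3f (-0.14), and Eif6 was higher (0.19), beside 10.3% of all genes lower and 15.6% higher. The 3 became 1 without WT replicate 2, WT replicate 3 or the first or the third DKO-labelled library, and the higher count was 4 without WT replicate 3. Of the DKO-labelled libraries against the Gadd45a-labelled libraries 5 were lower, Eif1 (-0.25) and Eif3c (-0.27) among them, and 2 higher, with Eif4e, which binds the cap, at 0.20, beside 10.6% and 15.8% of all genes. The 5 became 2 without the first DKO-labelled library and 3 without the second or without the first or the third Gadd45a-labelled library. The higher count was 1 without the first Gadd45a-labelled or the first DKO-labelled library.

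Mitochondrial ribosomal protein genes, whose products make the separate ribosome of mitochondria, summed to 840.9 to 915.6 CPM over 37 genes in each library. Higher in the DKO-labelled libraries than in WT were 2, Mrpl28 (0.22, SE 0.06, edgeR adjusted p 0.0212) and Mrpl11 (0.18, SE 0.06, adjusted p 0.0301), and 0 were lower, beside 15.6% and 10.3% of all genes. The 2 became 0 without WT replicate 3 or the second DKO-labelled library and 1 without WT replicate 2 or the third DKO-labelled library. Against Ing1 KO 4 were lower, among them Mrpl37 (-0.20), Mrpl38 (-0.25) and Mrpl17 (-0.15), beside 9.88% of all genes, and 0 higher. The 4 became 1 without Ing1 KO replicate 2 or the first DKO-labelled library and 2 without the second or without the third DKO-labelled library, and 1 was higher without the latter. In Ing1 KO 4 were higher than in WT, with Mrpl12 (0.26), Mrpl17 (0.18) and Mrpl38 (0.28) first, and 1 was lower, beside 12.1% and 11.4% of all genes. The 4 became 2 when WT replicate 3 was left out and 1 when Ing1 KO replicate 2 was, and the 1 became 0 when the latter or either of WT replicates 1 and 2 was left out. Their median log2 fold change was 0.01 in the DKO-labelled libraries against WT and 0.02 against the Gadd45a-labelled libraries, where 0 passed the adjusted threshold in edgeR, at most 1 in each direction did in an alternative, and 7 had an unadjusted p under 0.05.

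Host genes of small nucleolar RNAs carry those RNAs in their introns and, like ribosomal protein genes, often start with a pyrimidine run; 3 of 8 listed were tested. Gas5 (ENSMUSG00000053332, chromosome 1) stood at 222.8, 207.5 and 215.1 CPM in WT, 183.8, 180.4 and 174.9 CPM in Ing1 KO, 229.5, 206.8 and 220.4 CPM in the Gadd45a-labelled libraries and 143.5, 154.1 and 153.7 CPM in the DKO-labelled libraries. WT overlapped the Gadd45a-labelled libraries, Ing1 KO lay below both and the DKO-labelled libraries below all. The log2 fold change against WT was -0.26 in Ing1 KO (SE 0.05, edgeR adjusted p 0.00239) and -0.52 in the DKO-labelled libraries (SE 0.05, adjusted p 4.07e-05). Gas5, whose spliced transcript is degraded when translated, overlaps Zbtb37 in the annotation. Snhg12 fell in the DKO-labelled libraries against WT (-0.91, SE 0.12, adjusted p 0.00051), and was lower than in both single groups. Rack1, a scaffold protein on the small subunit, was lower than in the Gadd45a-labelled libraries (-0.15, SE 0.05, adjusted p 0.0362) and Ing1 KO (-0.17, SE 0.05, adjusted p 0.0201) and stood at -0.05 against WT (adjusted p 0.46). The interaction of all 3 was negative, at -0.28 for Gas5, -0.72 for Snhg12 and -0.27 for Rack1.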

How the data were processed

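The values are read counts per gene in 12 libraries, deposited by the authors as 1 table per library. Per the labels' protocols, polyadenylated RNA was read for 51 cycles from 1 end with an unstranded kit. Per the submitters' processing notes, TopHat2 2.0.9, Bowtie2 2.1.0, HTSeq 0.5.4 and the build mm9 were used; the strand setting of HTSeq was not given in the sources used here. The 5 summary lines, for what was assigned to no gene, were left out of library totals. They held 23.89% to 24.91% of all counts listed.

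Groups were compared with edgeR 4.0.16 in R 4.3.3 (1 model of 12 libraries, TMM, filterByExpr, robust quasi-likelihood, two-sided, 8 residual degrees of freedom, biological coefficient of variation 8.2%). A gene is called at a Benjamini-Hochberg adjusted p under 0.05 over the 15098 genes tested. Alternatives were size factors, total counts, no filter, DESeq2 1.42.0, only the libraries compared, a replicate block, pseudogene rows added and each library left out. The fit was tested on simulated counts. Symbols (32938 of 37991 identifiers), transcripts and pseudogenes came from a GENCODE annotation of GRCm38, so no gene coordinates of mm9 are given; windows of 51 bases were matched exactly, on both strands, to the transcripts of other genes. Level per kb uses a complete transcript whose coding sequence is as long as that of the principal one. Of these the best supported was taken, and then the shortest, which for Rps20 has 3706 bases.

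The deviations of same-numbered libraries from their group means correlated at 0.336, 0.105 and 0.129 between WT and the Gadd45a-labelled libraries. WT replicate 2 reached 0.112 with the third Gadd45a-labelled library and WT replicate 3 reached 0.132 with the second. The other differently numbered pairs of these groups were negative, down to -0.24. For WT replicates 2 and 3 the number therefore does not mark the closest partner, and the labels do not state what a number shares. With a replicate block 0 members were called between these 2 groups too. Over the other pairs of groups some same-numbered correlations were lower, down to -0.177.

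Named genes are, per comparison, up to 10 called members per direction with the smallest adjusted p, or the 3 with the smallest p; the 3 highest and lowest per kb; members with a called interaction; genes under the threshold; and up to 3 called genes of each other list. Members named beyond these, such as Rps12 and the further called members against Ing1 KO, were chosen after their values were seen. The members and lists were chosen with earlier results of these data known. One gene that the naming rule would list is left out of the text.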

Additional observations from a re-analysis of the deposited data

Results flagged for a closer look

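For 9 ribosomal protein genes the difference made by 1 labelled loss depended on the other, by the interaction test of edgeR at an adjusted p under 0.05, with the same direction in all 9. The large subunit genes were Rpl10a with an interaction of -0.658, Rplp1 with -0.433, Rpl8 with -0.358, Rpl18 with -0.354, Rpl3 with -0.276 and Rplp0 with -0.259. The small subunit genes were Rpsa with -0.321, Rps2 with -0.308 and Rps9 with -0.278. For Rpl10a, Rpl8 and Rpl18 the call held in all 18 alternative settings run, for Rplp1 in 17, for Rpl3 and Rpsa in 12, for Rplp0 in 11, for Rps9 in 10 and for Rps2 in 9. Rpl27, which is under 10 CPM and so no member, also passed with -0.55 (SE 0.15, edgeR adjusted p 0.0273). Since Gadd45a counts were higher in the libraries labelled as lacking it, the interaction is that of the labelled groups.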

How the results depend on the processing

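No called value of a member changed direction under any alternative run. Of the values of called members under alternatives, 31 of 104 lost their call in Ing1 KO against WT, 26 of 104 in the DKO-labelled libraries against WT, 24 of 143 against the Gadd45a-labelled libraries, 54 of 195 against Ing1 KO and 37 of 162 in the interaction. Called in every setting were 1 of 8, 2 of 8, 5 of 11, 2 of 15 and 3 of 9 members. In Ing1 KO against WT 3 members were higher with only the libraries compared. In the DKO-labelled libraries against WT the number higher was 0 with total counts and 1 each without the filter, with DESeq2 and with only the libraries compared. DESeq2 called 17 members in the interaction, all negative. With 1 library left out, the called counts ran from 1 to 13 higher and 0 to 1 lower in Ing1 KO against WT. For the DKO-labelled libraries they ran from 0 to 4 higher and 3 to 11 lower against WT. They were 6 to 13 lower against the Gadd45a-labelled libraries and 2 to 17 lower against Ing1 KO. In the interaction 4 to 19 were called, all negative. The cause of these shifts was not tested, beyond the fewer libraries. The groups share a replicate number whose meaning is not stated. With the replicate block 7 members were higher in Ing1 KO against WT. In the DKO-labelled libraries it gave 6 lower and 2 higher against WT, 12 lower against the Gadd45a-labelled libraries and 10 lower against Ing1 KO. In the interaction 8 were called with that block, all negative. With the named pseudogene rows added to their parents, which leave out copies named otherwise, the counts were 8 higher, 6 lower and 2 higher, 12, 14 and 8. Depth limits members with few uniquely placed reads: the lowest had 326 reads in a library.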

Other observations

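Of 19 genes that control ribosome production and translation, most of them through mTOR, 6 were higher and 2 lower in Ing1 KO against WT, beside 12.1% and 11.4% of all genes. Deptor, an inhibitor within the mTOR complexes, stood at 34.0, 37.0 and 34.4 CPM in WT and 17.3, 13.5 and 18.5 CPM in Ing1 KO, without overlap (-1.10, SE 0.11, edgeR adjusted p 0.000132). Myc, a transcription factor that drives ribosome production, stood at 27.8, 23.0 and 28.7 CPM in WT and 34.4, 40.3 and 36.8 CPM in Ing1 KO (0.49, SE 0.10, adjusted p 0.00373), and Rictor rose by 0.37. Against WT, 1 was higher and 2 were lower in the DKO-labelled libraries, Eif4ebp2 (0.17) against Deptor (-0.48) and Mlst8 (-0.26), beside 15.6% and 10.3% of all genes; 4 were lower without the third DKO-labelled library. Against Ing1 KO 2 were higher and 6 lower, beside 14.9% and 9.88% of all genes, among them Akt1s1, an mTOR substrate and inhibitor, at 55.7, 61.0 and 55.3 CPM against 71.0, 78.0 and 75.9 CPM (-0.39, SE 0.07, adjusted p 0.00247). Its interaction was -0.60 (SE 0.10, adjusted p 0.00375). No gene of this list or the next passed the adjusted threshold in the Gadd45a-labelled libraries against WT in edgeR or any alternative.

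Of 11 genes of ribosome quality control and stress, 5 were higher and 0 lower in Ing1 KO against WT, beside 12.1% and 11.4% of all genes, among them the p53 target Mdm2 (0.29), Cdkn1a (0.40) and Map3k20, the sensor of colliding ribosomes (0.43). Against WT, 3 were higher in the DKO-labelled libraries, beside 15.6% of all genes, and 1 without WT replicate 1, WT replicate 2 or the first DKO-labelled library. Eif2ak4, a kinase that halts translation when amino acids are short, stood at 31.7, 33.5 and 34.1 CPM in WT and 39.3, 40.3 and 39.9 CPM in the DKO-labelled libraries (0.27, SE 0.05, edgeR adjusted p 0.00143). Trp53 was lower there than in Ing1 KO (-0.26, SE 0.06, adjusted p 0.00644) and than in the Gadd45a-labelled libraries (-0.23, SE 0.06, adjusted p 0.0101). Of the list, 5 were higher and 2 lower than in the Gadd45a-labelled libraries, beside 15.8% and 10.6% of all genes. With 1 library left out, 3 to 4 were higher and 1 to 2 lower. Against Ing1 KO 0 were higher and 4 lower, beside 14.9% and 9.88% of all genes, and 2 to 4 were lower with 1 library left out.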
